A study of Mus musculus with 9 samples.

Results

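Abo, the gene of the A and B blood group transferase, and the families of Golgi enzymes that build, branch and cap glycans in mouse prostate organoids are described here. Members were found by a rule on gene symbols, drawn up with earlier results of these data known: Abo by name, and the Galnt, C1galt1, Gcnt, B3gnt, B3galt, B4galt, Mgat, Fut, St3gal, St6gal (with St6galnac) and St8sia genes. This gave 85 gene identifiers, with 84 symbols, of the 49585 in the deposited tables. A filter on low values, at least 0.5 CPM (reads scaled to the library's total) in 3 or more libraries, left 60 of the 85 for testing. Of the 25 others, 5 were at 0 in every library and the rest did not exceed 0.324 FPKM (reads per length of gene, relative to all reads counted in a library) in any.

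RNA-seq had been done on prostate basal cells of C57BL/6J mice that were sorted by flow cytometry and grown as organoids for 5 days. The 3 groups of 3 libraries differed by medium. BM was the base medium, advanced DMEM/F12 with B27, N-acetylcysteine, EGF at 50 ng/ml, Noggin at 100 ng/ml, the TGF-β receptor inhibitor A83-01 at 200 nM and the ROCK inhibitor Y-27632 at 10 µM, and every group shared these additions. R also held 500 ng/ml of R-spondin1, a secreted protein that strengthens Wnt signalling. RD7 held that R-spondin1 and, in addition, 100 nM dihydrotestosterone (DHT), an agonist of the androgen receptor. No group received DHT without R-spondin1, so RD7 against R measures DHT only where R-spondin1 was present. Replicates carry no label of animal, sort or culture, so p-values measure only the spread between these libraries.

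As background, glycosyltransferases move 1 sugar at a time from a nucleotide sugar to a growing glycan. Mucin-type O-glycans begin when a GALNT enzyme attaches N-acetylgalactosamine (GalNAc) to serine or threonine, and C1GALT1 then adds galactose to make the core 1 structure. The branches of N-glycans are laid down by MGAT enzymes, chains are lengthened by B4GALT and B3GNT enzymes, and ends are capped with fucose or sialic acid. FUT1 and FUT2 make the fucosylated H antigen, which is the acceptor that the ABO enzyme turns into the A or B antigen. The prostate epithelium secretes heavily glycosylated proteins.

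Libraries held 6505859 to 24141017 counted reads, and the shallowest was BM 1, where 3 reads amount to 0.461 CPM. Log2 values of the tested genes correlated at 0.969 to 0.992 within groups and at 0.872 to 0.974 between groups (Pearson's r, across genes). Summed FPKM of the basal markers was 7037 to 7915 in BM, 9689 to 10295 in R and 8312 to 9413 in RD7, and the basal cell factor Trp63 was at mean FPKM of 40.7, 44.3 and 26.5. The luminal markers summed to 1978 to 2508, 1482 to 1749 and 1639 to 2069. Gene by gene, 3 of the 5 luminal markers were higher and 1 lower in RD7 than in R (limma, adjusted p under 0.05). Their median log2 change was 1.9. Of the 5 basal markers, 3 were lower, with a median of -0.54. That comparison called 31.1% of all genes tested (13.4% higher and 17.7% lower). In RD7 against BM, 2 luminal markers were higher and 2 lower (median -0.37), where 47.0% of all genes were called. Of the basal markers, 1 was higher and 2 lower there (median -0.11). In R against BM, 2 luminal markers were lower and 1 basal marker higher, and 10.0% of all genes were called. The mesenchymal list summed to at most 29.4 in BM and R and to between 65.1 and 93.2 in RD7, where Dcn made up most of it. Without Dcn, that list summed to 12.1 to 18.4 in BM, 4.39 to 5.66 in R and 1.19 to 1.70 in RD7, and Lum was at 0 in RD7. Leukocyte, endothelial, neuroendocrine and seminal vesicle lists each summed to at most 6.69 FPKM in any library. The part of these markers in the results below was not tested. In bulk RNA, fewer cells of a type and less RNA per cell cannot be told apart.

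Each gene was tested with limma on log2(FPKM + 0.5), with all 9 libraries in 1 fit, p-values adjusted by the Benjamini-Hochberg method over the 15867 genes tested and a threshold of 0.05. A member past the threshold is called higher or lower. Fold changes named as such are ratios of mean FPKM, and log2 fold changes with their SE are from the fit, which understates the change of genes with low values. With R-spondin1, 2 of the 60 tested members were higher and 16 lower than in BM, which is 30.0% called against 10.0% of all genes tested (4.39% higher and 5.64% lower). The median log2 change was -0.11 for the members and 0.02 for all genes. Without library R 2, 10 were called, all lower. With DHT added to R-spondin1, 13 members were higher and 21 lower, which is 56.7% called against 31.1% of all genes (13.4% higher and 17.7% lower), and the medians were -0.14 and -0.09. That split moved with the scaling, to 17 higher and 18 lower when libraries were scaled by the median of ratios and to 15 higher and 16 lower when the trend with gene length was removed. Between RD7 and BM, 11 were higher and 25 lower, 36 of 60 called against 47.0% of all genes (21.6% higher and 25.4% lower), with medians of -0.22 and -0.07. At least 1 comparison called 46 of the 60 members, or 76.7%, against 54.9% of all genes. Groups whose libraries do not overlap were common. This held for 4805 of the 15867 genes in R against BM, 8223 in RD7 against R and 8309 in RD7 against BM. Among the 60 members it held for 32, 42 and 38. Long genes had lower log2 changes in each comparison (Spearman's rho of change with length across genes -0.33, -0.22 and -0.38), and the tested members had a median merged exon length of 4519.5 bases against 3564 for all genes. With that trend removed, 18, 31 and 35 members were called in the 3 comparisons.

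**Figure D1:**
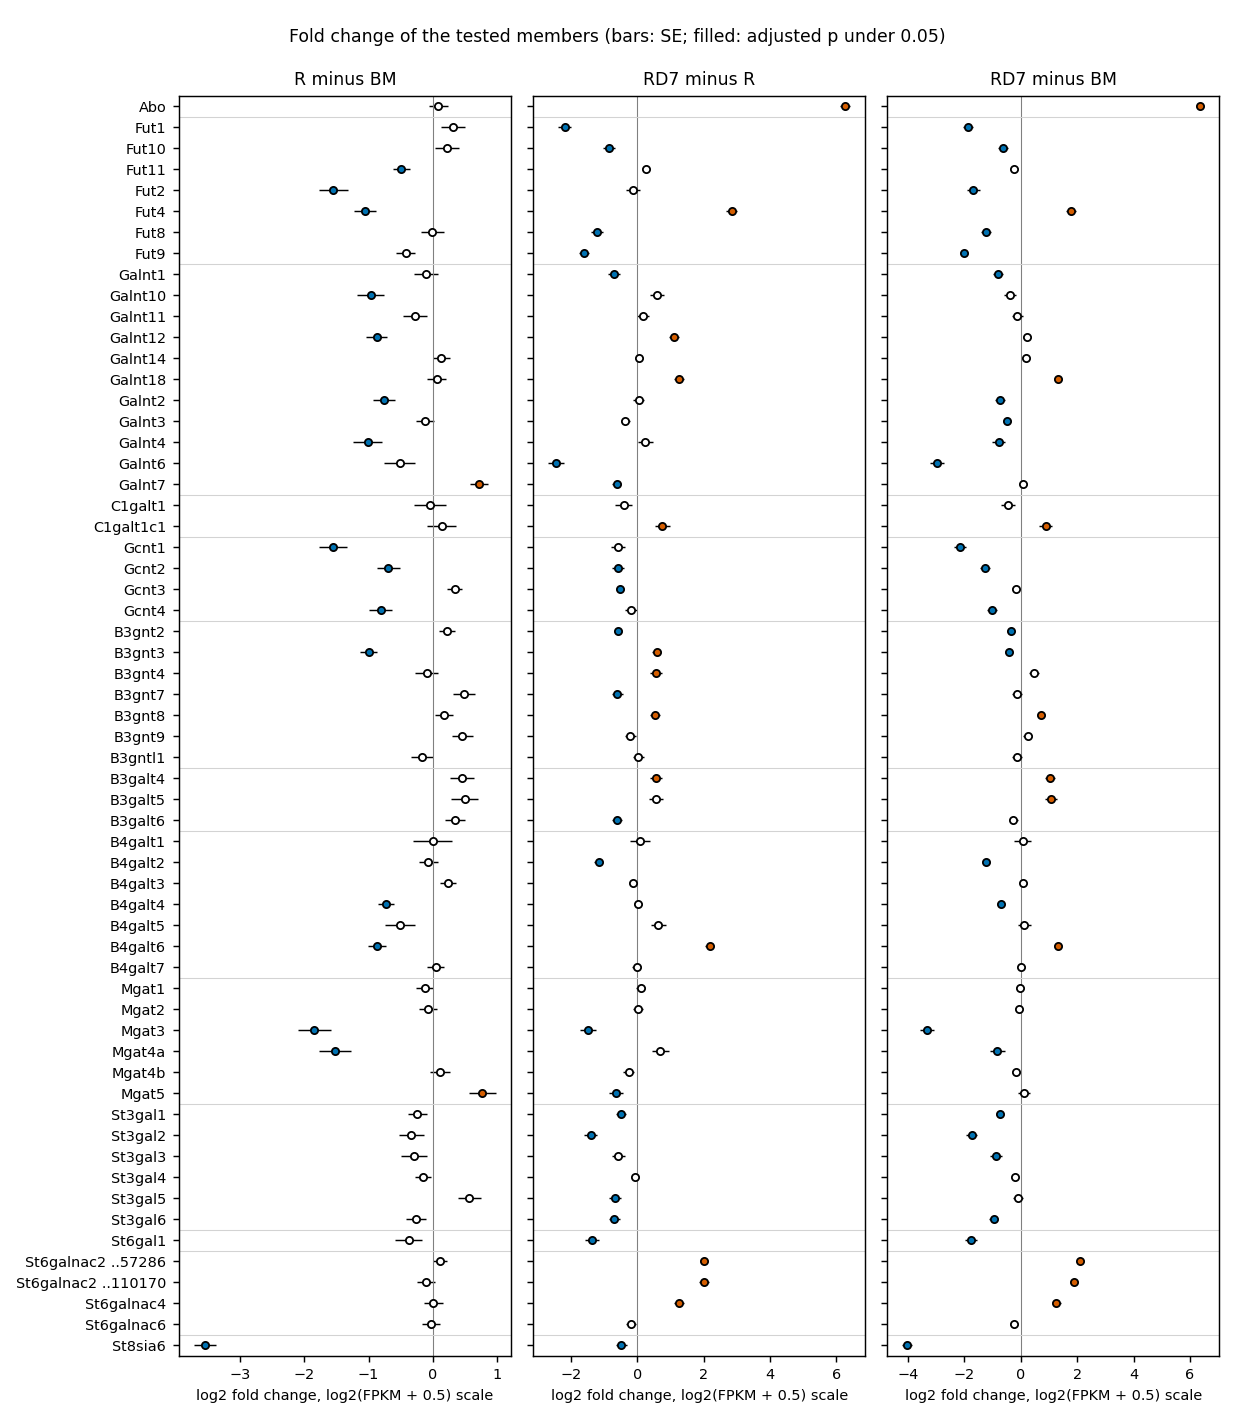
Log2 fold change of each of the 60 tested members (rows, grouped by role) in R minus BM, RD7 minus R and RD7 minus BM, on the log2(FPKM + 0.5) scale; points are estimates, bars SE, and filled points passed an adjusted p of 0.05 (orange higher, blue lower). The 16 filled blue points of R minus BM are led by St8sia6, and Abo lies far to the right of all other members in both comparisons with RD7. The horizontal axes differ between panels.

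Abo (ENSMUSG00000015787, GRCm38 chr2:26842503-26864979, minus strand) was found in RD7 and almost nowhere else. It was listed at 0 in each of the 3 BM libraries. R 1 and R 2 were also at 0, and R 3 held 0.0962 FPKM, from 4 reads. RD7 1 to 3 held 37.3, 37.7 and 46.7 FPKM, from 1283, 1381 and 1514 reads. Every RD7 library was therefore far above every library without DHT, and no groups overlapped except R with BM. The means were 0.0321 ± 0.0555 in R and 40.6 ± 5.30 in RD7 (SD, n = 3), a log2 change of 6.27 ± 0.15 (SE; limma, adjusted p = 4.2e-09). Reads relative to library totals stood 1180-fold higher in RD7 than in R, with an exact 95% interval of 460 to 4332 that covers counting error only. Against BM the level was at least 1299-fold higher, taking 3 reads over the 3 BM libraries as the floor (log2 change 6.35 ± 0.15, adjusted p = 3.2e-09). R and BM were not distinguishable at this depth (adjusted p = 0.75). Abo met the filter on low values through the RD7 libraries alone, and it was in the rule by name with earlier results known. Its p-values are therefore no independent support, and BM, at 0 throughout, adds no spread to the SE.

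Protein-coding genes with a start within 200 kb of the Abo start numbered 12, of which 9 could be tested. In RD7 against R only Surf1, a factor for cytochrome oxidase assembly, was called among these 9, with a log2 change of 0.79 (adjusted p = 0.041 by limma, and up to 0.141 without R 2, R 3, RD7 2 or RD7 3, each of which ended the call). Surf6, the nearest tested neighbour, lies 37.9 kb from Abo and was not called in that comparison. Of all genes tested, RD7 against R called 31.1% and RD7 against BM 47.0%. In RD7 against BM, 4 of the 9 were higher (Surf6, Rpl7a, Surf2 and Surf1) and Slc2a6 was lower. The calls of Surf6 and Surf2 in that comparison were lost when single libraries were left out (any but BM 2 for Surf6, and BM 1, BM 2, RD7 2 or RD7 3 for Surf2, adjusted p up to 0.116 and 0.088). 

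**Figure D2:**
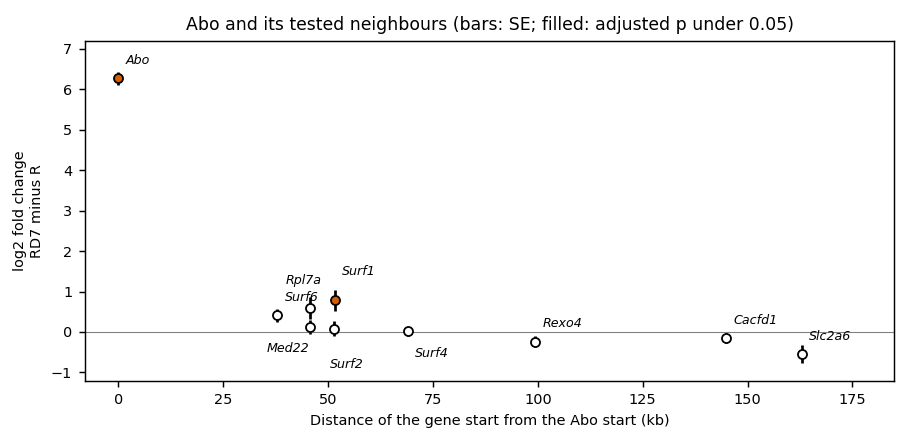
Log2 fold change, RD7 minus R, of Abo and its 9 tested protein-coding neighbours (vertical axis, log2(FPKM + 0.5) scale, bars SE, filled points adjusted p under 0.05) against the distance of each gene's start from the Abo start in kb. Abo stands at 6.27, and Surf1, the only filled neighbour, at 0.79.

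Among the fucosyltransferases, 7 of 8 genes were tested: 3 were lower in R than in BM, and in RD7 1 was higher and 4 lower than in R. These calls are 42.9% and 71.4% of the 7, against 10.0% and 31.1% of all genes tested. Fut1 and Fut2, whose products make the acceptor of the ABO enzyme, were both low in RD7. Fut1 (chr7:45617289-45621059) held 3.26, 4.06 and 2.65 FPKM in BM, 3.85, 4.49 and 4.33 in R, and 0.481, 0.395 and 0.744 in RD7. The RD7 libraries lay below all others, 7.82-fold under R (log2 change -2.19 ± 0.19, limma adjusted p = 1.2e-05), and R and BM overlapped. Fut2 (chr7:45648591-45666394) held 4.05, 2.18 and 1.87 FPKM in BM, 0.554, 0.546 and 0.553 in R, and 0.473, 0.386 and 0.523 in RD7. Here the drop came with R-spondin1, 4.90-fold from 2.70 ± 1.18 to 0.551 ± 0.00400 (-1.55 ± 0.22, adjusted p = 0.0013). RD7 did not differ from R beyond the test's threshold (-0.13 ± 0.22, adjusted p = 0.68).

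Fut4 and Fut9 both encode α1,3-fucosyltransferases that make the Lewis x structure, and they moved in opposite directions with DHT. Fut4 (chr9:14748320-14752393) held 3.02, 3.16 and 2.85 FPKM in BM, 1.09, 1.11 and 1.39 in R, and 14.7, 10.8 and 9.88 in RD7. No groups overlapped: R was 2.51-fold under BM (-1.05 ± 0.17, limma adjusted p = 0.0028) and RD7 9.85-fold over R (2.84 ± 0.17, adjusted p = 9.5e-07). RD7 was also above BM (1.79 ± 0.17, adjusted p = 3.1e-05). Fut9 (chr4:25609332-25800244) held 3.11, 3.46 and 2.94 FPKM in BM, 2.24, 2.15 and 2.31 in R, and 0.433, 0.295 and 0.480 in RD7. It stepped down, and the fall from R to RD7 was 5.55-fold (-1.61 ± 0.14, adjusted p = 1.9e-05), while that from BM to R missed the threshold (adjusted p = 0.099). Fut8, which adds the core fucose of N-glycans, had the highest mean FPKM of the family, and it fell from 36.9 ± 1.56 in R to 15.7 ± 1.84 in RD7 (-1.21 ± 0.18, adjusted p = 0.00062). Fut10 fell from 2.69 ± 0.466 to 1.26 ± 0.167 (adjusted p = 0.0061), and its call in RD7 against BM was lost without BM 2 or RD7 2 (adjusted p up to 0.0716). Fut11 was at 13.3 ± 1.41 in BM and 9.29 ± 0.278 in R (adjusted p = 0.043), a call that was lost in 10 of 17 alternatives, among them the removal of any 1 R library (adjusted p up to 0.163). Within the summed FPKM of the family, the Fut4 share went from 2.10 ± 0.272% in R to 28.3 ± 3.13% in RD7 and that of Fut8 from 64.6% to 37.8%.

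**Figure D3:**
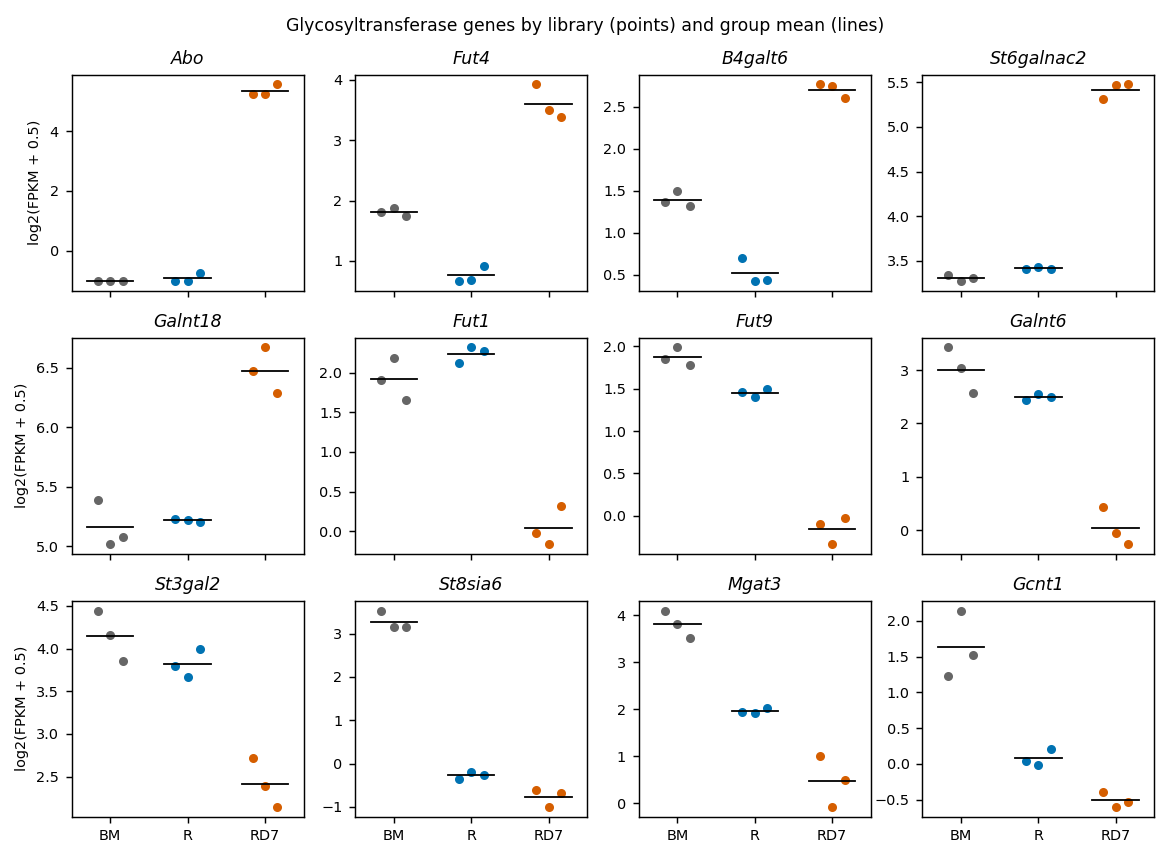
Level of 12 members in each of the 9 libraries, as log2(FPKM + 0.5), with points for libraries and lines for the mean of each group of 3 on that scale. Abo, Fut4, B4galt6, St6galnac2 (the longer gene model) and Galnt18 are highest in RD7, Fut1, Fut9, Galnt6 and St3gal2 fall in RD7, and St8sia6, Mgat3 and Gcnt1 fall already in R. Vertical axes differ between panels.

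The promoters of B3gnt3, which moved in all 3 comparisons, and of Galnt6, the member that fell most with DHT on the log2 scale, are printed because they hold letters that androgen or Wnt factors can recognise. They are the 250 bases before the RefSeq start in the sense of the gene, GRCm38.p6, and overlap no GENCODE M21 exon. Capitals mark AGAACA or its reverse complement, which is 1 arm of the androgen response element, and the TCF/LEF motif CTTTGAT or CTTTGTT or its reverse complement.
B3gnt3 promoter (chr8:71701801-71702050, minus strand): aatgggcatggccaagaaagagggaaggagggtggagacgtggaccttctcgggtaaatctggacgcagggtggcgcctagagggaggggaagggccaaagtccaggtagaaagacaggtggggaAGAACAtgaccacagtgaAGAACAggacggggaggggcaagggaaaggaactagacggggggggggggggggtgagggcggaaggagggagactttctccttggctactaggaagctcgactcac
Galnt6 inner promoter (chr15:100720478-100720727, minus strand): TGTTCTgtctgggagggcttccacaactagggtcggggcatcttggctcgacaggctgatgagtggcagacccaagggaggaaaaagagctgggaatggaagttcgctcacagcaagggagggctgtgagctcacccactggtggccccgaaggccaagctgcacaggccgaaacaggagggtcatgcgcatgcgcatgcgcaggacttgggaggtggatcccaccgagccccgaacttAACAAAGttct
Galnt6 outer promoter (chr15:100729377-100729626, minus strand): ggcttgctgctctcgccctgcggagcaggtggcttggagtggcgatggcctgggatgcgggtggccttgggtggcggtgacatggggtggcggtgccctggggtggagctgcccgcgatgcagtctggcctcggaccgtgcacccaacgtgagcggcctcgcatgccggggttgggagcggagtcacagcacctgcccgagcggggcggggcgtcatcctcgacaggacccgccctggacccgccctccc
In the B3gnt3 window AGAACA starts 125 and 107 bases before the gene start. In the inner Galnt6 window the reverse complement of that hexamer opens the window, and a TCF/LEF match begins 11 bases before the start. The outer window holds neither. RefSeq windows were matched for 61 of the 84 member symbols, giving 87 windows. Abo had no window and was not searched. The same holds for other called members, among them Fut2, Fut9, B4galt6, Galnt18, Mgat3, St3gal2 and St6galnac2. Galnt1, Galnt2, Galnt4, Galnt12, Fut10, St3gal1, Gcnt3 and C1galt1c1 also had none. The counts below do not cover genes without a window. AGAACA on either strand was in 12 of these 87 and in 16.1% of all 32851 windows of the same length. The TCF/LEF motif was in 7 of the 87 and in 8.06% of all. The full androgen response element, searched as AGAACA, any 3 bases and TGTTCT, was in 0 of the 87 and in 0.00913% of all. The printed genes were picked for their matches. Of the other called members, B3galt5, Fut8, Gcnt1, Gcnt2 and Gcnt4 had a match in a window. The windows of Fut1, Fut4, B4galt2, St6gal1 and St8sia6, which also changed, held none of these motifs. Some genes with a match, such as B3galt2, Mgat4c and St8sia1, did not pass the filter on low values. A match is a description of letters, and no binding was measured.

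Of the 17 Galnt genes, whose enzymes start O-glycans, 11 were tested. R-spondin1 went with 1 higher and 4 lower, and DHT with 2 higher and 3 lower. Each comparison called 45.5% of the 11, against 10.0% and 31.1% of all genes. Galnt6 (chr15:100691813-100729376) held 10.2, 7.67 and 5.47 FPKM in BM, 4.92, 5.38 and 5.12 in R, and 0.852, 0.460 and 0.336 in RD7. All RD7 libraries were below all others, 9.35-fold under R (-2.46 ± 0.24, limma adjusted p = 3.7e-05) and 14.2-fold under BM (-2.97 ± 0.24, adjusted p = 9.3e-06). Galnt6os, an antisense gene, shares 11.4% of its exon bases, and the library kit does not mark strand. Galnt18 moved the other way, from 36.8 ± 0.410 in R to 89.1 ± 12 in RD7 (1.26 ± 0.14, adjusted p = 0.00011), against 35.5 ± 5.14 in BM. Its share of the summed Galnt FPKM went from 22.1 ± 1.15% to 44.1 ± 5.31%, so that in RD7 it was the family's most abundant transcript per length, a place held in BM by Galnt2.

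Galnt12 fell from 3.17 ± 0.260 in BM to 1.5 ± 0.262 in R and stood at 3.78 ± 0.474 in RD7 (limma adjusted p = 0.0052 for R against BM and 0.00053 for RD7 against R). Galnt4 (chr10:99108159-99113247) held 10.5, 12.2 and 7.71 FPKM in BM, 4.15, 4.71 and 5.21 in R, and 7.41, 4.12 and 5.63 in RD7. All R and RD7 libraries were below the BM libraries, and R and RD7 overlapped (R against BM -1.01 ± 0.22, adjusted p = 0.016). Galnt10, at 18.1 ± 3.98 in BM and 8.91 ± 1.22 in R (adjusted p = 0.016), and Galnt2, at 63.4 ± 10.8 and 36.9 ± 4.78 (adjusted p = 0.019), were lower as well. The Galnt2 value is uncertain, since other annotated genes share 90.0% of its exon bases. These 3 calls were lost without BM 1, R 1 or R 2, and that of Galnt4 also without BM 2 (adjusted p up to 0.0765, 0.0725 and 0.0984 for Galnt4, Galnt10 and Galnt2). Galnt7, which prefers peptides that already carry GalNAc, rose from 3.88 ± 0.425 to 6.65 ± 0.227 with R-spondin1 (adjusted p = 0.01, and 0.0501 without R 2) and fell to 4.14 ± 0.498 in RD7 (adjusted p = 0.0084). Galnt1 fell from 31.5 ± 3.01 in R to 19.3 ± 3.35 in RD7 (adjusted p = 0.018), which was lost without R 2, R 3, RD7 2 or RD7 3 (up to 0.0688). Galnt3 was lower in RD7 than in BM (24.9 ± 4.21 against 34.9 ± 1.51, adjusted p = 0.016), a call lost without RD7 2 or RD7 3 (up to 0.062), and the same contrast for Galnt4 (adjusted p = 0.018) was lost without BM 1, BM 2 or RD7 2. Galnt11 and Galnt14 were called in no comparison.

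**Figure D4:**
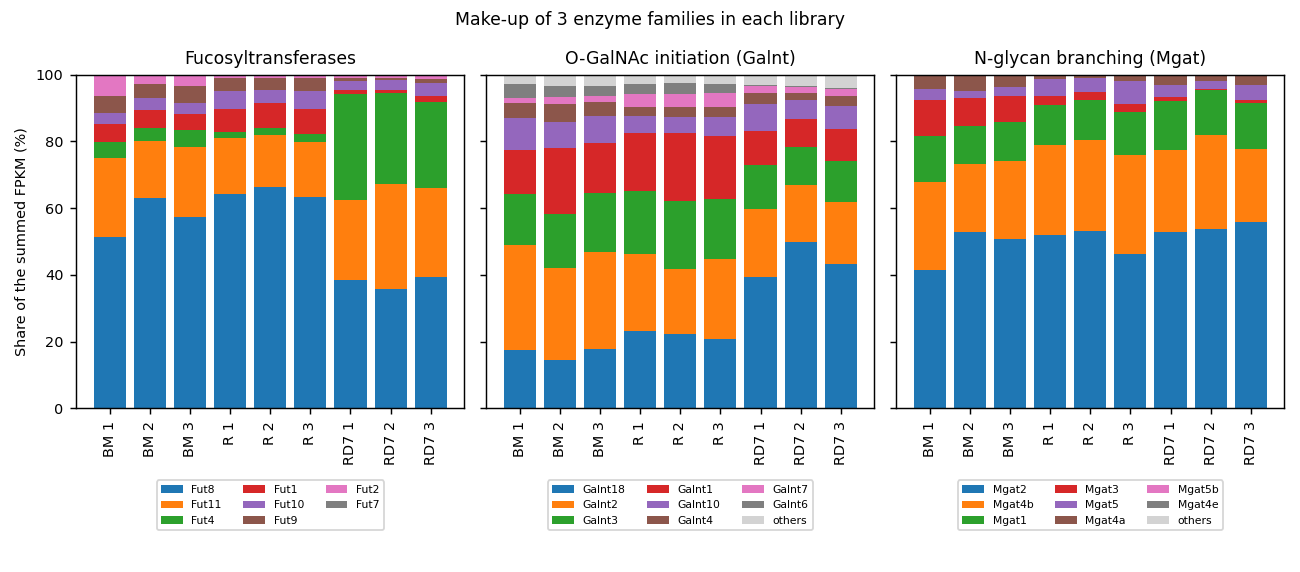
Share of each gene in the summed FPKM of the fucosyltransferases, the Galnt genes and the Mgat genes (vertical axis, percent) in each of the 9 libraries (bars). Fut4 widens to 28.3% and Galnt18 to 44.1% on average in RD7, while Mgat2 holds the largest share of its family in every library.

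For core 1, C1galt1 was called in no comparison (14.4 ± 5.40 in BM, 13.4 ± 1.81 in R and 10.1 ± 2.52 in RD7). C1galt1c1 encodes Cosmc, the chaperone that the core 1 enzyme needs, and it was higher in RD7 than in R, 28.9 ± 4.13 against 16.9 ± 1.67 (log2 change 0.75 ± 0.23, limma adjusted p = 0.031). The removal of any 1 R library, of RD7 2 or of RD7 3 ended that call (adjusted p up to 0.105).

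Of the 4 tested core 2 and I branching genes (of 5), 3 were lower in R than in BM and 2 were lower in RD7 than in R. These are 75.0% and 50.0% of the 4, against 10.0% and 31.1% of all genes called. The summed FPKM of the family was 15 ± 3.05 in BM, 7.85 ± 0.846 in R and 4.86 ± 0.822 in RD7. Gcnt1 (chr19:17326141-17372844), the core 2 branching enzyme, held 1.85, 3.92 and 2.38 FPKM in BM, 0.529, 0.494 and 0.655 in R, and 0.261, 0.160 and 0.191 in RD7. The 3 groups did not overlap. R was 4.86-fold under BM (-1.55 ± 0.21, limma adjusted p = 0.00099), while RD7 against R missed the threshold (-0.59 ± 0.21, adjusted p = 0.058). Gcnt2, which makes the I branches of polylactosamine and had the highest mean of the group, went from 11.2 ± 1.96 to 6.71 ± 0.553 and to 4.34 ± 0.771 (adjusted p = 0.03 and 0.028). Each of these steps was lost in 8 of 17 alternatives, among them the removal of any 1 R library (adjusted p up to 0.133 and 0.101), while RD7 against BM held throughout (-1.28 ± 0.17, adjusted p = 0.00036). Gcnt4 was at 0.660 ± 0.240 in BM and 0.159 ± 0.119 in R (adjusted p = 0.015, and 0.0622 at the most, lost without R 2), and Gcnt3 at 0.382 ± 0.0242 in R and 0.115 ± 0.0404 in RD7 (adjusted p = 0.0066, and 0.0582 with the length trend removed). Other annotated genes share 11% of the exon bases of Gcnt2 and 10.5% of those of Gcnt4.

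Of the 9 B3gnt genes, which extend chains with GlcNAc, 7 were tested. In R 1 was lower than in BM, and in RD7 3 were higher and 2 lower than in R. These calls are 14.3% and 71.4% of the 7, against 10.0% and 31.1% of all genes. B3gnt3, which extends core 1 O-glycans and had the highest mean of the family, held 50.9, 43.4 and 40.1 FPKM in BM, 21.3, 22.5 and 22.3 in R, and 33.3, 34.8 and 31.4 in RD7. The groups did not overlap: R was 2.03-fold under BM (limma adjusted p = 0.00054), and RD7 lay between them (0.58 ± 0.13 over R, adjusted p = 0.0066). Its RD7 against BM call (adjusted p = 0.02) was lost without BM 1 or RD7 3 (up to 0.0631). B3gnt2, the main polylactosamine enzyme, was at 25.4 ± 2.41 in R and 16.8 ± 1.43 in RD7 (adjusted p = 0.0062), though other annotated genes share 66.0% of its exon bases. B3gnt7 was lower in RD7 (1.93 ± 0.182 against 3.22 ± 0.302 in R, adjusted p = 0.019) and B3gnt8 higher (17.8 ± 2.43 against 12.1 ± 0.846, adjusted p = 0.018), but each call ended with the loss of 1 library, R 2 or RD7 2 for B3gnt7 and R 3 or RD7 3 for B3gnt8 (up to 0.0769 and 0.0744). Other annotated genes share 12.6% of the exon bases of B3gnt7 and 18.1% of those of B3gnt8. B3gnt4 shares 93.2% of its exon bases with Diablo, so its call (adjusted p = 0.042, up to 0.143 in the alternatives and lost without BM 1, RD7 2, RD7 3 or any R library) says little of B3gnt4 itself. B3gnt9 and B3gntl1 were called in no comparison.

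B3galt6, an enzyme of the linker that joins glycosaminoglycans to proteins, fell from 12.2 ± 1.67 in R to 7.71 ± 0.742 in RD7 (limma adjusted p = 0.014, and up to 0.0665 without R 2 or RD7 3). B3galt4, which makes the ganglioside GM1, was at 4.26 ± 0.899, 5.97 ± 0.825 and 9.12 ± 1.27 in BM, R and RD7. Its RD7 against BM difference held in every alternative (1.03 ± 0.19, adjusted p = 0.002), and that against R (adjusted p = 0.04) did not (up to 0.133, lost without R 2, R 3, RD7 2 or RD7 3). B3galt5, which makes type 1 chains, was higher in RD7 than in BM (0.875 ± 0.523 against 0.131 ± 0.0419, adjusted p = 0.0036), with RD7 1 at 1.48 FPKM and the other RD7 libraries at 0.561 and 0.586.

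All 7 B4galt genes were tested. B4galt6, a lactosylceramide synthase at the start of most glycosphingolipids, held 2.06, 2.31 and 1.99 FPKM in BM, 1.12, 0.844 and 0.851 in R, and 6.29, 6.17 and 5.55 in RD7. The groups did not overlap, and the pattern was that of Fut4: R under BM (-0.87 ± 0.15, limma adjusted p = 0.0033) and RD7 6.40-fold over R (2.18 ± 0.15, adjusted p = 2.1e-06). B4galt5, the other lactosylceramide synthase, was called in no comparison (1.19 ± 0.284 in R, 2.10 ± 0.180 in RD7, adjusted p = 0.06). B4galt2 fell from 4.67 ± 0.398 in R to 1.79 ± 0.151 in RD7 (-1.17 ± 0.14, adjusted p = 0.00016), with 28.2% of its exon bases shared with other annotated genes, and B4galt4 from 17.1 ± 0.790 in BM to 10.1 ± 0.546 in R (-0.73 ± 0.12, adjusted p = 0.0035). B4galt1, the main galactosyltransferase of N-glycans and the family's highest by mean, stood at 20.8 ± 7.71, 20.0 ± 3.41 and 21.8 ± 8.29, and B4galt3 and B4galt7 were also called nowhere.

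Among the Mgat genes of N-glycan branching, 6 of 10 were tested, and the abundant ones were the steady ones. Mgat2, which starts the antenna on the α1,6 arm, was at 73.1 ± 11.9, 68.9 ± 7.06 and 69.5 ± 3.06, and neither it nor Mgat1 or Mgat4b was called in any comparison. Mgat3 (chr15:80173721-80215519), whose enzyme adds the bisecting GlcNAc, held 16.6, 13.5 and 11 FPKM in BM, 3.36, 3.27 and 3.60 in R, and 1.51, 0.449 and 0.914 in RD7. It stepped down at each addition without overlap, by 1.84 ± 0.26 on the log2 scale with R-spondin1 (limma adjusted p = 0.0011) and by 1.49 ± 0.26 with DHT (adjusted p = 0.0017), 14.3-fold in all. Mgat4a (chr1:37439340-37541016) held 6.35, 8.10 and 4.99 FPKM in BM, 1.81, 1.44 and 2.58 in R, and 4.23, 2.37 and 3.76 in RD7. R was 3.34-fold under BM (-1.52 ± 0.25, adjusted p = 0.0033), and R and RD7 overlapped (adjusted p = 0.061). Its RD7 against BM call (adjusted p = 0.022) was lost without BM 1, BM 2 or RD7 2 (up to 0.0853). Mgat5, the β1,6 branching enzyme, was called higher in R than in BM (7.26 ± 1.56 against 4.05 ± 0.814, adjusted p = 0.047) and lower in RD7 (4.46 ± 0.966, adjusted p = 0.042), and each call was lost in 9 of 17 alternatives, among them the removal of any 1 R library (up to 0.142 and 0.158).

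Among sialyltransferases, 4 of the 6 St3gal genes and St6gal1, whose enzymes act on galactose, were lower in RD7 than in R. Of 3 tested St6galnac genes, for enzymes that act on GalNAc, 2 were higher (3 of 4 identifiers, since St6galnac2 has 2). That comparison called 17.7% of all genes lower and 13.4% higher. The St3gal summed FPKM was 61.2 ± 9.16 in BM, 50.7 ± 3.32 in R and 33.2 ± 2.37 in RD7. St3gal2, which caps core 1 and gangliosides, fell from 13.7 ± 1.64 in R to 4.91 ± 1.07 (-1.40 ± 0.19, limma adjusted p = 0.00044). St3gal6 went from 1.72 ± 0.166 to 0.878 ± 0.208 (adjusted p = 0.0088), St3gal1 from 1.23 ± 0.134 to 0.721 ± 0.0626 (adjusted p = 0.025) and St3gal5, the GM3 synthase, from 1.27 ± 0.267 to 0.614 ± 0.163 (adjusted p = 0.019). The call of St3gal1 was lost without R 2, R 3, RD7 2 or RD7 3 and that of St3gal5 without R 2, R 3, RD7 1 or RD7 2 (up to 0.121 and 0.0745). St3gal6 shares 26.0% of its exon bases with Dcbld2. St3gal3, the family's highest by mean, was lower in RD7 than in BM (11.6 ± 0.276 against 22.3 ± 6.97, adjusted p = 0.0073) and missed the threshold against R (adjusted p = 0.054), and St3gal4 was called nowhere (14.5 ± 1.41 in RD7). St6gal1, which caps N-glycans with α2,6-linked sialic acid, fell from 6.36 ± 1.06 in R to 2.15 ± 0.573 in RD7 (-1.38 ± 0.21, adjusted p = 0.00086).

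St6galnac2, which adds sialic acid to the GalNAc of O-glycans, is annotated under 2 identifiers that overlap on chromosome 11, so reads could be split between them and each level is uncertain (15.2% and 22.8% of their exon bases are shared with other annotated genes). ENSMUSG00000057286 (chr11:116675303-116694868) held 9.58, 9.18 and 9.42 FPKM in BM, 10.1, 10.3 and 10.1 in R, and 39.2, 43.7 and 44.1 in RD7. ENSMUSG00000110170 (chr11:116677483-116681290) held 20.1, 17.7 and 14.7 in BM, 14.8, 16.6 and 16.7 in R, and 61.5, 64.9 and 71.5 in RD7. Under both identifiers RD7 was above every other library, 4.17-fold over R (2.00 ± 0.11, limma adjusted p = 6.3e-07) and 4.11-fold over R (2.00 ± 0.14, adjusted p = 3.2e-06). St6galnac4 rose from 0.738 ± 0.112 in R to 2.46 ± 0.348 in RD7 (1.26 ± 0.15, adjusted p = 0.00015), and St6galnac6 was called in no comparison. The summed FPKM of the family was 30.1 ± 2.46 in BM, 29.4 ± 0.989 in R and 112.9 ± 7.38 in RD7. In each group most of this sum came from the 2 overlapping St6galnac2 identifiers, 1 gene under 2 models whose levels are uncertain.

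St8sia6 (chr2:13651021-13794064), which links sialic acid to sialic acid, was the only one of 6 St8sia genes to pass the filter. It held 11.1, 8.33 and 8.33 FPKM in BM, 0.286, 0.370 and 0.331 in R, and 0.160, 0 and 0.124 in RD7. The BM libraries lay far above the rest, and R was 28.1-fold lower (-3.54 ± 0.17, limma adjusted p = 7.6e-07), from 3345 reads in BM and 156 in R. This was the largest change of any tested member with R-spondin1, and it held in all 17 alternatives. The further difference from R to RD7 (-0.49 ± 0.17, adjusted p = 0.0496, 38 reads in RD7) was lost in 11 of 17 alternatives, among them the removal of any 1 R library, of RD7 2 or of RD7 3 (up to 0.183).

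R against BM and RD7 against R share the R libraries, and their values are given side by side only. Both called 9 members. The share of all genes called in both was not counted, so these 9 are only listed. Fut4, B3gnt3, Galnt12 and B4galt6 were lower in R and higher in RD7. Mgat3, Gcnt2 and St8sia6 were lower in both, and Galnt7 and Mgat5 higher in R and lower in RD7. In RD7 against BM, Fut4 and B4galt6 were higher in RD7, B3gnt3 was lower, and Galnt12 was not called (0.22 ± 0.16, limma adjusted p = 0.27).

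The genes that make nucleotide sugars and carry them into the Golgi were called more often higher than lower with DHT: of 27 tested, 13 were higher and 2 lower in RD7 than in R, with a median log2 change of 0.37 against -0.09 for all genes. With R-spondin1, 1 was higher and 3 lower than in BM. The 15 calls of RD7 against R are 55.6% of the list against 31.1% of all genes. The 4 of R against BM are 14.8% against 10.0%. The 3 largest log2 changes with DHT in this list were those of Gne, Nans and Cmas. Slc35a1, which carries CMP-sialic acid into the Golgi, was not called in RD7 against R (0.24 ± 0.13, limma adjusted p = 0.18). Gne, whose enzyme carries out the rate-limiting first steps of sialic acid synthesis, held 28.7, 21.1 and 19.1 FPKM in BM, 6.31, 6.39 and 6.70 in R, and 65.2, 62.2 and 58.5 in RD7. Without overlap, R was 3.55-fold under BM (-1.73 ± 0.15, limma adjusted p = 5.1e-05) and RD7 9.58-fold over R (3.16 ± 0.15, adjusted p = 2.5e-07). Nans, the sialic acid synthase, rose from 16.8 ± 2.28 in R to 66.4 ± 11.2 in RD7 (1.95 ± 0.18, adjusted p = 2.8e-05). Cmas, which activates sialic acid to CMP-sialic acid, rose from 32.9 ± 3.29 to 105.5 ± 10.1 (1.67 ± 0.14, adjusted p = 1.5e-05). Gmds, the first enzyme of GDP-fucose synthesis from GDP-mannose, fell from 17.2 ± 1.96 in BM to 10.2 ± 1.22 in R (adjusted p = 0.0071) and stood at 26.2 ± 1.97 in RD7 (adjusted p = 6.1e-05 against R). Gfpt2, of the hexosamine pathway, was at 0.329 ± 0.0252 in BM and 0.0811 ± 0.0330 in R (adjusted p = 0.0045). The 2 genes lower with DHT were Uap1, which makes UDP-GlcNAc (26.0 ± 1.10 to 18.3 ± 0.933, adjusted p = 0.013, and 0.0607 without R 2), and Slc35d1 (3.68 ± 0.352 to 2.51 ± 0.346, adjusted p = 0.043, lost in 9 of 17 alternatives, among them the removal of any 1 R library, of RD7 2 or of RD7 3, up to 0.148).

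**Figure D5:**
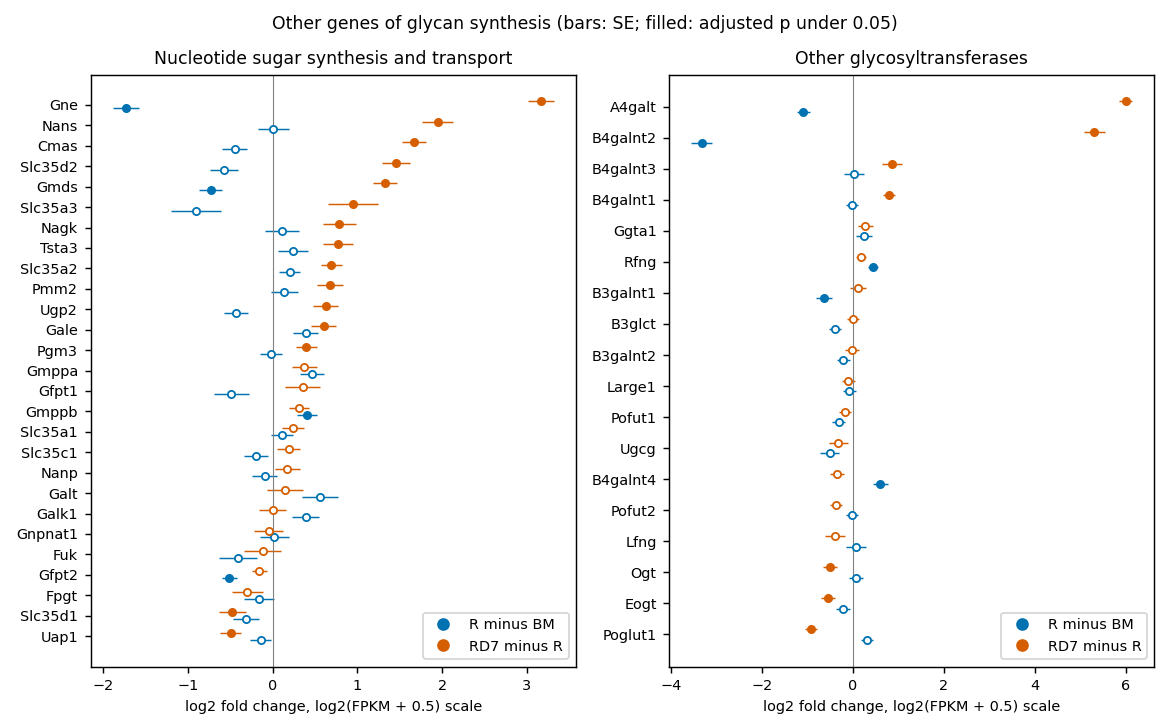
Log2 fold change on the log2(FPKM + 0.5) scale of the 27 tested genes of nucleotide sugar synthesis and transport (left) and of 18 tested other glycosyltransferases (right), in R minus BM (blue) and RD7 minus R (orange); bars are SE and filled points passed an adjusted p of 0.05. Gne at 3.16, A4galt at 5.99 and B4galnt2 at 5.30 have the largest changes with DHT, and all are lower in R than in BM.

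Of 18 other glycosyltransferases tested, 4 were higher and 3 lower in RD7 than in R, and 2 higher and 3 lower in R than in BM (medians of -0.06 and -0.05). The 7 calls of RD7 against R are 38.9% of the list against 31.1% of all genes. The 5 of R against BM are 27.8% against 10.0%. A4galt, the globotriaosylceramide synthase, held 0.779, 0.820 and 1.08 FPKM in BM, 0.173, 0.119 and 0.170 in R, and 44.5, 40.6 and 38.4 in RD7. RD7 was 267-fold over R (5.99 ± 0.15, limma adjusted p = 4.2e-09), and R was under BM (-1.09, adjusted p = 0.00088). B4galnt2, which makes the Sda antigen, held 27.0, 17.1 and 13.2 in BM, 1.45, 1.30 and 1.39 in R, and 85.4, 65.1 and 71.8 in RD7. Neither gene had overlapping groups, and B4galnt2 was 13.8-fold lower in R than in BM (-3.32 ± 0.23, adjusted p = 9.2e-06) and 53.6-fold higher in RD7 than in R (5.30 ± 0.23, adjusted p = 1.2e-07). Poglut1, the O-glucosyltransferase of Notch, fell from 18.9 ± 1.70 to 9.79 ± 0.962 with DHT (-0.91 ± 0.13, adjusted p = 0.00051). B3galnt1 was lower in R than in BM (0.121 ± 0.0727 against 0.469 ± 0.101, adjusted p = 0.045, lost in 11 of 16 alternatives, the removal of any 1 BM or R library among them, up to 0.179). B4galnt3 was higher in RD7 than in BM (1.37 ± 0.362 against 0.522 ± 0.287, adjusted p = 0.0093).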

How the data were processed

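The deposited files give 1 FPKM value for each of 49585 genes in each of 9 libraries (polyadenylated RNA, SMART-Seq cDNA, per the labels' protocols). The submitters' processing notes give build GRCm38 and list edgeR 3.24.1, featureCounts, STAR 2.6.1a and CASAVA 1.9 without roles, and the annotation release is not given in the sources used here. Groups were taken from the sample titles. Symbols came from GENCODE M21, which held all but 259 identifiers. Reads per gene were read back from the FPKM values deposited by the authors and each gene's length. For 22971 of 26813 genes above 0 the product was whole within 0.01 of a read, and for the other 3842 a length was fitted. Depth was 6505859, 24141017 and 19606757 reads in BM, 15961444, 23256007 and 21657601 in R, and 17893596, 19102843 and 16894535 in RD7. FPKM are not counts, so limma 3.58.1 (R 4.3.3) was run on log2(FPKM + 0.5) with 9 libraries, 3 group means and 6 residual degrees of freedom. The fit was first run on simulated reads. There fewer genes changed than were called here, and no trend with gene length was put in. That run therefore does not show how the fit performs on these data.

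Read counting on overlapping genes, without strand, can move FPKM between them, and the share of exon bases in common is given where it is above 10% for a called member. Values are given in every library for Abo and for the 8 called members with the largest log2 change in each comparison, and every other called member is named, as is the highest of each role group. From each pathway list, up to 3 called genes per comparison are named, and some genes of the lists are not reported here. Members and lists were chosen with earlier results of these data known. Motifs were searched in RefSeq promoter windows. Alternatives were other pseudocounts, filters and scalings, limma-voom on the reads, a replicate block, each library left out and, added after seeing the data, removal of the length trend.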

Additional observations from a re-analysis of the deposited data

How the results depend on the processing

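No called member changed direction under any alternative. In R against BM, 10 of the 18 calls held under every alternative that could be computed (16 or 17), in RD7 against R 21 of 34, and in RD7 against BM 30 of 36. Calls listed above as lost without a library could also end under other settings. With the length trend removed, St3gal1, B3gnt7, B3gnt4 and B3galt4 lost theirs in RD7 against R. Fut10, Galnt3 and Mgat4a did so in RD7 against BM, where B3gnt3 lost its call under median-of-ratios scaling. Leaving out each library in turn gave 10 to 18, 23 to 38 and 31 to 38 called members in the 3 comparisons, and the lowest count in R against BM, 10, came without R 2. The other settings gave 14 to 18, 29 to 38 and 34 to 37. Same-numbered libraries of different groups deviated with correlations of -0.52 to 0.27 over tested genes. The main fit did not treat the numbers as pairs, and the labels do not say whether equal numbers mark a shared animal, sort or day. A fit with the replicate number as a block called 16, 29 and 35 members. Members under 0.5 FPKM, such as Gcnt3, Gcnt4 and St8sia6 in RD7, rest on few reads, and their log2 changes depend on the pseudocount. Intervals and floors cover counting error only.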

Other observations

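Genes that trim or remove glycans were also called with DHT. Of 11 tested sialidases, fucosidases and other glycosidases, 6 were called in RD7 against R (limma, adjusted p under 0.05), all higher, with a median log2 change of 0.49 against -0.09 for all genes. Those calls are 54.5% of the list against 31.1% of all genes. Hexa, a subunit of lysosomal β-hexosaminidase, was at 16.6 ± 1.43 FPKM in BM, 7.95 ± 1.40 in R and 42.6 ± 4.26 in RD7 (SD, n = 3; adjusted p = 0.0016 and 1.6e-06 for the 2 steps by limma). Fuca1, the lysosomal fucosidase, rose from 30.0 ± 2.51 to 81.1 ± 12.6 (limma adjusted p = 0.00011). Manba was lower in R than in BM (3.27 ± 0.432 against 5.59 ± 1.08, adjusted p = 0.039), a call lost in 8 of 17 alternatives, the removal of any 1 R library, of BM 1, BM 2 or RD7 3 among them (up to 0.165).

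Of 31 tested genes of N-glycan assembly and trimming, 5 were higher and 2 lower in RD7 than in R, and 1 was lower in R than in BM. The 7 calls of RD7 against R are 22.6% of the list against 31.1% of all genes, and the 1 of R against BM is 3.23% against 10.0%. Of the 7, Alg6, Ganab, Ddost, Man2a1 and Ost4 lost their call in 11, 11, 10, 9 and 3 of 17 alternatives (adjusted p up to 0.297), the removal of R 2 among them for each. Man1c1, a Golgi mannosidase, was at 9.96 ± 1.5, 5.70 ± 0.728 and 23.0 ± 5.14 FPKM (limma adjusted p = 3.4e-05 for RD7 against R). Its lower level in R (adjusted p = 0.026) was lost without BM 1, BM 2, R 1 or R 2 (up to 0.117). Dad1, a subunit of the oligosaccharyltransferase, was at 12.4 ± 3.34 in R and 34.5 ± 9.23 in RD7 (adjusted p = 0.01). Ost4, another subunit, was at 10.5 ± 3.46 and 30.5 ± 12.3 (adjusted p = 0.016, and up to 0.0647 without R 2, R 3 or RD7 2). Man2a2, a Golgi mannosidase, was lower in RD7 than in BM (6.30 ± 2.82 against 15.9 ± 3.90, adjusted p = 0.0069).

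Among 17 mucin and mucin-like genes, 7 were tested, and in RD7 2 were higher and 3 lower than in R. These 5 calls are 71.4% of the genes tested in this list, against 31.1% of all genes. Muc1 was at 1.61 ± 0.275, 0.312 ± 0.0306 and 1.06 ± 0.142 FPKM in BM, R and RD7 (limma adjusted p = 0.00017 and 0.00088 for R against BM and RD7 against R). Muc20 fell at each step, 2.99 ± 0.492, 0.803 ± 0.151 and 0.256 ± 0.103 (adjusted p = 0.00037 and 0.0062). Muc15 was highest in R (0.260 ± 0.231, 1.06 ± 0.174 and 0.122 ± 0.0827, adjusted p = 0.007 and 0.00082). Podxl, a sialylated surface protein, rose from 0.301 ± 0.0344 in R to 3.43 ± 0.660 in RD7 (adjusted p = 4.5e-06). Cd44, the hyaluronan receptor, fell from 87.1 ± 7.28 to 45.8 ± 6.89 (adjusted p = 0.0012).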
